A study of Rattus norvegicus with 35 samples.

Results

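Livers of rats given the middle dose of ketoconazole for 7 days were compared with livers of rats given its vehicle for 7 days, by small RNA sequencing. The comparison takes 6 of the 35 libraries of the study, 3 from the middle dose and 3 from the control, chosen by their labels alone, and all 763 rat miRNAs in the count table. The treated animals received 30 mg/kg of ketoconazole each day by mouth. The controls received 0.5% methylcellulose, the vehicle, on the same schedule. All animals were male Sprague-Dawley rats, 6 weeks old, and all livers were taken 24 h after the last dose. The study also holds a low dose of 10 mg/kg and a high dose of 100 mg/kg, and durations of 3 and 14 days, which are used here only where they show how the day 7 comparison differs. No label states whether the numbered libraries of a group come from different rats, so the p-values reflect only how these libraries vary, which may be technical.

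Ketoconazole is an azole antifungal that blocks a cytochrome P450 step of sterol synthesis and is known to injure the liver. A microRNA (miRNA) is cut from a hairpin precursor that has a 5p arm and a 3p arm. One arm is usually kept in the silencing complex and the other is mostly degraded. The kept strand finds messenger RNAs mainly through its seed, the bases from position 2 to position 8, so miRNAs with one seed can repress the same messages. In liver, miR-122 and miR-192 are well known as miRNAs of hepatocytes, and their release into blood is used as a sign of hepatocyte damage.

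Mature sequences were matched by name to RefSeq (GRCr8) for 292 of the 328 miRNAs that were tested. They are printed 5′ to 3′ with the seed in capitals. Where sequences are compared below, bases were matched position by position from the 5′ end with no gap. The first set holds miRNAs with the largest rises, and it shows that they do not share a seed.
miR-22-5p: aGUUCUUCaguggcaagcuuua
miR-128-3p: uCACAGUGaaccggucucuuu
miR-671: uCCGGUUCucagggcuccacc
miR-222-3p: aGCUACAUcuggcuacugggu
miR-191a-5p: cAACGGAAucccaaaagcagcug
miR-28-3p: cACUAGAUugugagcuccugga
miR-322-3p: aAACAUGAagcgcugcaaca

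The second set is the miR-15/16 group, of which the 5 members with a RefSeq sequence share the seed AGCAGCA and were all lower.
miR-16-5p: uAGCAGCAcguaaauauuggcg
miR-15b-5p: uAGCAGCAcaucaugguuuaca
miR-195-5p: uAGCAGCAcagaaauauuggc
miR-322-5p: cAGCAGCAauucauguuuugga
miR-497-5p: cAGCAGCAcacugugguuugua

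The third set shows 2 of the 3 seed groups in which members moved in opposite directions, the miR-25/92 group with the seed AUUGCAC and the miR-125 and miR-351 group with the seed CCCUGAG.
miR-92a-3p: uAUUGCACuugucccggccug
miR-92b-3p: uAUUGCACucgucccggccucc
miR-25-3p: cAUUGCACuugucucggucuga
miR-32-5p: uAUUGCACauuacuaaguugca
miR-363-3p: aAUUGCACgguauccaucugu
miR-125a-5p: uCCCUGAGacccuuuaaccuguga
miR-351-5p: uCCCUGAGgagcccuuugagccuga
miR-125b-5p: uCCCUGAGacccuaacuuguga

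Total counts ran from 2815680 to 4178766 over the 6 libraries and from 2665943 to 9665416 over all 35. Among the 763 miRNAs, 243 had no read in any of the 6 libraries and 328 passed the low-count filter and were tested. Levels are given as CPM, counts scaled to a common library size after TMM scaling. A principal component analysis of log2 CPM put the 35 libraries into 2 sets along its first axis, which held 46.2% of the variance: the middle dose day 7 libraries scored 5.15, 6.02 and 6.25, and the day 7 controls scored -7.47, -14.49 and -13.26. Control libraries 2 and 3 of day 7 were the farthest out of all 35. Results are therefore also given without these 2 libraries, and against the 5 controls of days 3 and 14 in place of the day 7 controls. The low dose of day 7 and all middle and high dose libraries scored above 0 on it, and every control and the low dose of days 3 and 14 scored below 0. The labels name no preparation or sequencing batch, so a batch and the treatment cannot be told apart.

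The middle dose and control livers differed in 167 of the 328 miRNAs tested, or 50.9%, at an adjusted p of 0.05 in edgeR's quasi-likelihood test. Of these, 89 were higher (27.1% of those tested) and 78 were lower (23.8%). Changes of at least 2-fold were called for 72 miRNAs (22.0%), of which 57 were higher and 15 lower, so most of the large changes were rises. The 3 treated and 3 control libraries did not overlap in CPM for 167 miRNAs (50.9%), and 144 miRNAs were both called and without overlap. With control libraries 2 and 3 left out, the count of calls was 72, with 38 higher and 34 lower. Against the controls of days 3 and 14 it was 123, with 74 higher and 49 lower. Of the 167 called miRNAs, 165 kept their sign without control libraries 2 and 3, 162 kept it against the other controls, and 64 were called in the same direction in both.

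**Figure D1:**
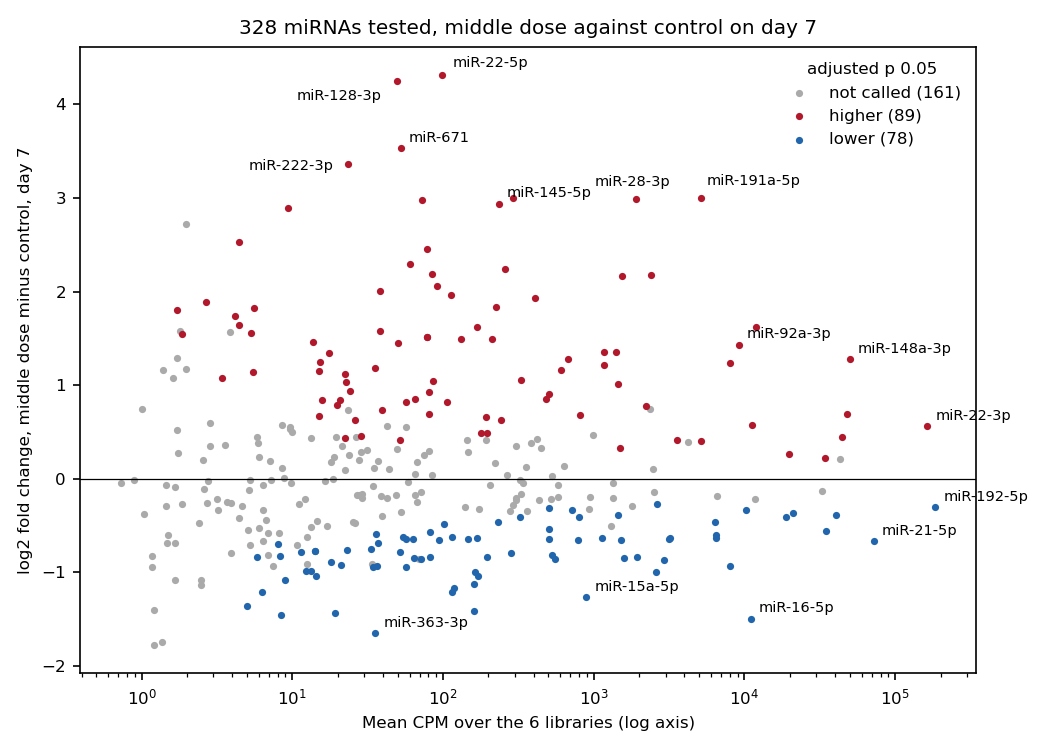
Mean level over the 6 libraries (CPM, log axis) and log2 fold change, middle dose minus control on day 7, for each of the 328 miRNAs tested. The 89 miRNAs called higher are red, the 78 called lower are blue and the others grey, and the rises reach 4.31 while the falls named by the rule reach -1.65.

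The largest rise was that of miR-22-5p, the rare arm of the miR-22 hairpin. It stood at 11.9, 4.68 and 11.1 CPM in the 3 control libraries and at 121, 224 and 222 CPM in the 3 middle dose libraries. Middle dose library 1 was the lowest of the treated and lay above every control. The log2 fold change was 4.31 ± 0.27 (SE), a 19.8-fold rise with adjusted p = 2.67e-14. The change compares 3 with 3 libraries, while SEs here and below rest on the spread estimated over all 35 libraries. miR-22-3p, the other arm and one of the most abundant miRNAs of the liver, rose far less, by 0.56 ± 0.10 (adjusted p = 4.61e-05), from 152530, 119210 and 121990 CPM to 180730, 188730 and 211960 CPM. Without control libraries 2 and 3 the miR-22-3p change was 0.23 (adjusted p = 0.308), so its call rests on those libraries, while miR-22-5p rose by 3.86.

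miR-128-3p, a miRNA best known from neurons, was counted at 8.23, 3.60 and 2.28 CPM in the controls and 49.5, 126 and 108 CPM after the middle dose, a log2 fold change of 4.25 ± 0.37 (adjusted p = 6.25e-11). The control values rest on 36, 10 and 8 reads, and the treated on 182, 348 and 319 reads. miR-671 went from 12.4, 5.75 and 6.28 CPM to 104, 79.4 and 107 CPM, a log2 fold change of 3.53 ± 0.31. In both miRNAs control library 1 was the highest control, and the groups did not overlap. Leaving out control libraries 2 and 3, the rises were 3.39 and 2.85, and against the controls of days 3 and 14 they were 4.13 and 3.25.

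miR-222-3p and miR-221-3p come from one cluster, share a seed and are known to repress the cell cycle inhibitor Cdkn1b. miR-222-3p was at 4.80, 2.52 and 4.86 CPM in controls and 51.7, 35.7 and 41.9 CPM after the middle dose, a rise of 3.37 ± 0.30 (adjusted p = 9.21e-11). miR-221-3p was at 34.5, 30.2 and 41.4 CPM and 149, 98.9 and 194 CPM, a rise of 2.06 ± 0.30 (adjusted p = 1.32e-06). Both were higher in all 3 treated libraries than in any control. miR-221-5p, the rare arm, was at 41.6, 5.78 and 12.5 CPM in the treated libraries, and its call rests on the first of them: the log2 fold change was 1.46 ± 0.51 with it and 0.28 without it (adjusted p = 0.66). Without control library 3 the miR-221-5p change was 1.30 (adjusted p = 0.0791). All 3 tested members of the list of miR-221 and miR-222 were called higher, against 27.1% of all miRNAs tested.

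miR-191a-5p showed the largest rise among miRNAs above 1000 CPM in the mean of the 6 libraries. It was at 1435, 997 and 979 CPM in the controls and 10495, 8453 and 8447 CPM in the treated libraries, a rise of 3.01 ± 0.19, or 8.03-fold (adjusted p = 2.67e-14). Its neighbour miR-425-5p, cut from the same primary transcript, fell by 0.79 on the log2 scale (adjusted p = 6.59e-06), from 346, 343 and 389.9 CPM to 199.6, 207 and 216 CPM. Members of this 1 cluster thus moved in opposite directions, and both kept their calls without control libraries 2 and 3, at 2.55 and -0.86. miR-425-3p, the rare arm of that hairpin, was among the 12 largest falls, at -1.04 ± 0.24.

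The other miRNAs among the 12 largest rises were miR-423-3p (3.00 ± 0.26), miR-28-3p (2.99 ± 0.20), miR-322-3p (2.98 ± 0.20), miR-145-5p (2.94 ± 0.25), miR-365-3p (2.46 ± 0.29), miR-361-5p (2.29 ± 0.25) and miR-423-5p (2.24 ± 0.21), each as a log2 fold change with its SE. miR-28-3p rose from 595, 361 and 328 CPM to 3482, 3434 and 3309 CPM, without overlap between the groups. miR-145-5p, a miRNA of smooth muscle and pericytes, rose from 78.0, 38.5 and 44.0 CPM to 472, 398 and 372 CPM, and its control library 1 was the highest control. All 12 leading rises stayed called without control libraries 2 and 3, and all 12 stayed called against the controls of days 3 and 14. Their smallest values in those settings were 1.65 for miR-361-5p and 1.67 for miR-365-3p.

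**Figure D2:**
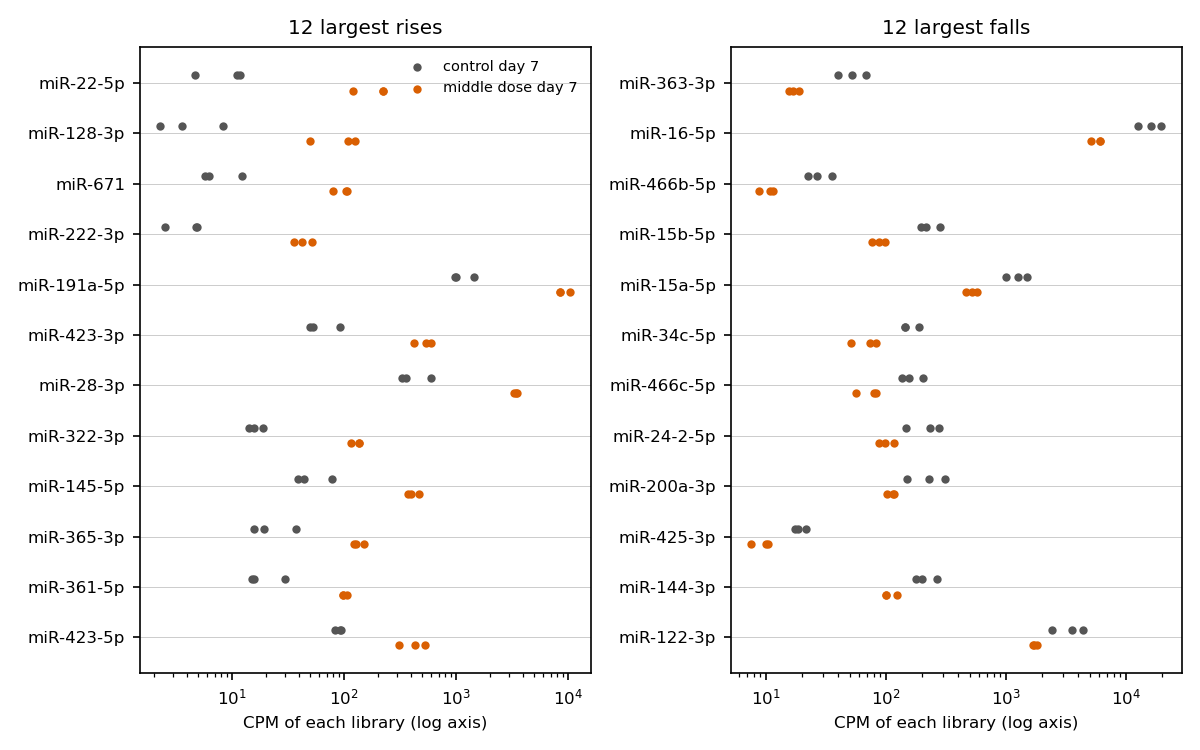
CPM (log axis) of each control (grey) and middle dose (orange) library of day 7 for the 12 largest rises and the 12 largest falls among called miRNAs of at least 10 CPM without overlap between the groups. The treated libraries of miR-22-5p lie between 121 and 224 CPM, those of miR-16-5p between 5142 and 6066 CPM.

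The falls were smaller than the rises, and among miRNAs above 1000 CPM in the mean of the 6 libraries the 2 largest were miR-16-5p and miR-122-3p. miR-16-5p, which is known to repress cyclins and Bcl2, was at 12668, 19836 and 16127 CPM in the controls and 6058, 6066 and 5142 CPM in the treated libraries, a log2 fold change of -1.49 ± 0.16 (adjusted p = 2.09e-09). Control library 2 was the highest and control library 1 the lowest control, and the treated libraries were all lower. Against the controls of days 3 and 14 the change was -0.85 (adjusted p = 1.52e-05), and the day 7 controls themselves were higher than those controls by 0.64 (adjusted p = 0.016). miR-15b-5p moved from 216, 286 and 197 CPM to 88.1, 98.2 and 76.4 CPM (-1.41 ± 0.19), and miR-15a-5p from 1001, 1504 and 1271 CPM to 469.7, 579 and 522 CPM (-1.27 ± 0.15). Both are relatives of miR-16-5p, and both fell in all 3 settings.

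miR-363-3p had the largest fall, -1.65 ± 0.26 (adjusted p = 4.89e-06), from 40.0, 52.5 and 68.5 CPM to 16.9, 15.5 and 18.9 CPM. miR-34c-5p, a target of the tumour suppressor p53, fell by 1.21 on the log2 scale (adjusted p = 0.000437), from 145, 191 and 145 CPM to 51.4, 82.7 and 74.1 CPM. Its relative miR-34a-5p, the member most used as a sign of p53 activity, did not pass, at 0.25 ± 0.31 (adjusted p = 0.512). Its treated libraries, at 22.8, 17.7 and 36.9 CPM, overlapped the controls at 26.8, 18.7 and 19.1 CPM, and its sign turned to -0.18 without control libraries 2 and 3. Of the 4 tested miR-34 arms, 1 was called, a fall, beside 23.8% lower over all miRNAs tested.

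Rodent miR-466b-5p (-1.44 ± 0.35) and miR-466c-5p (-1.17 ± 0.21) also fell. They belong to a family of near-identical copies, between which the counting could split reads, so their separate values are uncertain. miR-24-2-5p (-1.13 ± 0.18), miR-200a-3p (-1.04 ± 0.20), miR-144-3p (-1.001 ± 0.32) and miR-122-3p (-0.997 ± 0.16) complete the 12 falls. Of the 12, 9 stayed called without control libraries 2 and 3. The calls of miR-466b-5p (adjusted p = 0.0549), miR-200a-3p (adjusted p = 0.114) and miR-144-3p (adjusted p = 0.0771) were lost there. Against the controls of days 3 and 14, 11 stayed called and miR-144-3p was lost (adjusted p = 0.124).

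Of the 8 most abundant miRNAs, 4 rose, 3 fell and 1 did not pass, beside 27.1% higher and 23.8% lower over all 328. miR-148a-3p, known to repress the LDL receptor and the DNA methyltransferase Dnmt1, moved most among them. It was at 38563, 24373 and 24304 CPM in the controls and 54800, 86145 and 70648 CPM in the treated libraries, a rise of 1.28 ± 0.15 (adjusted p = 1.04e-08). The rare arm, miR-148a-5p, rose by 2.18 ± 0.21, from 1350.1, 612 and 631 CPM to 4159.8, 3643 and 3950 CPM. Both arms of this hairpin rose in all 3 settings.

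miR-26a-5p rose by 0.69 ± 0.12 and miR-143-3p by 0.44 ± 0.11. miR-143-3p is a miRNA of smooth muscle and stellate cells and shares its cluster with miR-145-5p. The abundant miRNAs that fell were miR-21-5p by 0.67, miR-10a-5p by 0.39 and miR-192-5p by 0.30 on the log2 scale. miR-21-5p, known to rise in inflamed and injured tissue, was lower here, at 50540, 64226 and 52378 CPM against 74110, 86364 and 105200 CPM in controls (adjusted p = 0.00335). miR-192-5p, the most abundant miRNA of these libraries, was at 189700, 226550 and 195970 CPM in controls and 163660, 166580 and 166830 CPM in treated livers (adjusted p = 0.00965).

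The remaining abundant miRNA, miR-378a-3p, did not pass (adjusted p = 0.136). The calls of the 3 abundant falls were lost both without control libraries 2 and 3 and against the controls of days 3 and 14, where they were -0.33, -0.24 and -0.15. The call of miR-192-5p was also lost without control library 2 alone (-0.24, adjusted p = 0.0651). That of miR-10a-5p was lost without control library 2 (-0.32, adjusted p = 0.0605), control library 3 (-0.33, adjusted p = 0.0637) or middle dose library 3 (-0.28, adjusted p = 0.0972). miR-26a-5p fell short without control libraries 2 and 3 (0.29, adjusted p = 0.202) and passed against the other controls.

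The tissue label was checked against cell type markers. Hepatocyte miRNAs made up 303180 to 344640 CPM in the controls and 280100 to 317400 CPM in the treated libraries when summed over 12 tested markers, and miR-122-5p alone was at 40248, 44676 and 39786 CPM in the controls. Of these 12 markers, 3 were called higher, 6 lower and 3 neither, beside 27.1% higher and 23.8% lower over all miRNAs tested. The 6 lower became 3 without control libraries 2 and 3 and 3 against the controls of days 3 and 14, while 3 stayed higher in each. In whole liver, fewer cells of a type and less RNA per cell cannot be told apart. The 3 rises were both arms of miR-148a and miR-194-3p. miR-122-5p, the hallmark miRNA of hepatocytes, fell by 0.56 on the log2 scale to 31368, 27344 and 26172 CPM (adjusted p = 0.00202), and miR-122-3p fell by 0.997 (adjusted p = 5.65e-06). Both arms of miR-122 stayed called without control libraries 2 and 3, at -0.62 and -0.59, and against the other controls, at -0.35 and -0.45.

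Markers of other liver cells moved by list as follows. Both arms of the endothelial miR-126a fell, miR-126a-3p by 0.93 (adjusted p = 1.3e-05) and miR-126a-5p by 0.36 (adjusted p = 0.00225). The summed level of both was 29074 to 37855 CPM in controls and 22938 to 24595 CPM after treatment, without overlap. Of 7 tested stellate and smooth muscle markers, 3 rose and 1 fell, beside 27.1% higher and 23.8% lower over all 328. The summed level was 36657 to 42215 CPM in controls and 49138 to 57343 CPM in treated libraries, most of it miR-143-3p, and miR-214-5p was at 0 in all 6. miR-199a-5p, a stellate cell miRNA, rose by 0.66 ± 0.17 (adjusted p = 0.00199), but its change was 0.51 (adjusted p = 0.197) without control libraries 2 and 3 and 0.02 (adjusted p = 0.926) against the controls of days 3 and 14. The fall was that of miR-214-3p (-0.94 ± 0.22), another stellate cell miRNA, whose groups overlapped and whose call was lost without control libraries 2 and 3 (adjusted p = 0.504).

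Markers of blood were present at low levels. Of 7 white cell markers, 2 rose and 5 were not called, a share near the 27.1% higher over all 328. The rises were miR-142-5p (1.02 ± 0.21) and miR-342-3p (1.18 ± 0.26). The 5 not called all had negative log2 fold changes, from -0.68 for miR-150-3p to -0.175 for miR-223-3p, and the median of the list was -0.22. The summed level of the 7 was 1543.8 to 2192.6 CPM in controls and 2738.3 to 2843.8 CPM in treated libraries. Most of that sum was miR-142-5p, with a mean of 1446.6 CPM over the 6 libraries. Against the controls of days 3 and 14 neither of the 2 rises passed (adjusted p = 0.111 and 0.0795). Of 4 red cell markers only miR-144-3p was called, lower, beside 23.8% lower over all 328. Their summed level overlapped between the groups, at 1520.7 to 3209.8 CPM and 3071.2 to 3668.5 CPM. Most of that sum was miR-486, with a mean of 2360.5 CPM over the 6 libraries. It was not called, at 0.74 ± 0.33 (adjusted p = 0.0624), though its groups did not overlap. miR-144-5p (0.32 ± 0.32) and miR-451-5p (-0.20 ± 0.32) were not called either. Of 7 bile duct markers, miR-200a-3p, miR-141-3p and miR-200a-5p fell (adjusted p = 8e-05, 0.0266 and 0.0424), beside 23.8% lower over all 328, and none of the 3 passed without control libraries 2 and 3. Against the controls of days 3 and 14, 2 of the 7 bile duct markers were called lower. The summed levels overlapped, at 1003.4 to 1975.5 CPM and 986.39 to 1310.3 CPM. The call of miR-141-3p was also lost without control library 2, control library 3, middle dose library 2 or middle dose library 3, with values from -0.71 to -0.62. That of miR-200a-5p was lost without control library 2, control library 3, middle dose library 1 or middle dose library 2, with values from -0.84 to -0.49. Striated muscle markers were near absent, with miR-1-3p and miR-206-3p at 0 in all 6 libraries. The part of any of these cell types in the other results was not tested.

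The miR-15/16 family was the clearest group among the falls. All 6 tested members of the list were lower, with a median log2 fold change of -1.06, beside 23.8% lower and a median of -0.05 over all 328 miRNAs. The members matched by sequence share the seed AGCAGCA printed above, although miR-15b-5p and miR-16-5p have the same base at only 14 of 22 positions. Besides the 3 members above, miR-195-5p fell by 0.86 (adjusted p = 1e-04), miR-322-5p by 0.65 (adjusted p = 0.000218) and miR-497-5p by 0.63 on the log2 scale (adjusted p = 0.00209). The family summed to 16011 to 24693 CPM in controls and 7474.4 to 8419.7 CPM in treated libraries. Leaving out control libraries 2 and 3, 5 of the 6 stayed called, and against the controls of days 3 and 14 the same 5 did, miR-497-5p being the exception in each (adjusted p = 0.457 and 0.109).

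The miR-25/92 group, with the seed AUUGCAC, split by member. miR-92a-3p, from the cell growth cluster miR-17/92, rose by 1.43 ± 0.17 (adjusted p = 3e-08), from 6245, 4373 and 4215 CPM to 10379, 15556 and 14109 CPM. miR-25-3p, which has the same base as miR-92a-3p at 18 of 21 positions, fell by 0.84 (adjusted p = 2.08e-05), from 2004, 3004 and 2460.5 CPM to 1245, 1495 and 1444 CPM. miR-92b-3p, the same as miR-92a-3p at 19 of 21 positions, rose by 2.90 ± 0.31 (adjusted p = 2.43e-09), but from 7, 8 and 8 reads, and how reads common to both were counted is unknown. The remaining members fell, miR-32-5p with -0.75 ± 0.21 and miR-363-3p with -1.65 ± 0.26.

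All 5 members of that seed group were called in the same direction without control libraries 2 and 3 and against the other controls. The list of miR-17 and its relatives by cluster or copy had 14 tested members, of which 2 rose and 6 fell, beside 27.1% higher and 23.8% lower over all 328, and the rises were miR-92a-3p and miR-92b-3p. miR-17-5p (-0.83 ± 0.15), miR-93-5p (-0.65 ± 0.13) and miR-106b-5p (-0.62 ± 0.18), which share another seed, were among the falls.

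The miR-125 and miR-351 group, with the seed CCCUGAG, also split. miR-125a-5p and miR-125b-5p are relatives of lin-4, the first miRNA found in worms. They have the same base at 15 of 22 positions with no gap allowed. Their printed sequences are closer than this once a gap is allowed, and how reads common to both were counted is unknown. miR-125a-5p rose by 1.35 ± 0.21 (adjusted p = 4.28e-06), from 921, 779 and 678 CPM to 2218, 2096 and 1768 CPM. miR-125b-5p fell by 0.63 (adjusted p = 0.00301), from 3982, 4756 and 2989 CPM to 2688, 2644 and 2253 CPM. miR-351-5p, the rodent member, rose by 1.93 ± 0.21 (adjusted p = 2.43e-09), from 229, 149 and 131 CPM to 792, 556 and 593 CPM. All 3 kept direction and call without control libraries 2 and 3 together and against the other controls, while miR-125b-5p without control library 2 alone was at -0.49 (adjusted p = 0.0506).

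miR-99a-5p, a neighbour of let-7c in the genome, fell by 0.87 on the log2 scale (adjusted p = 0.00113). The seed group of let-7, a family that restrains growth and whose members often differ by a base or so, held 9 tested members. Of these, 5 fell and 1 rose, with a median of -0.27, beside 23.8% lower, 27.1% higher and a median of -0.05 over all 328. The falls ran from -0.66 ± 0.16 for let-7b-5p to -0.27 ± 0.11 for let-7i-5p, and let-7f-5p, the most abundant, rose by 0.26 ± 0.11 (adjusted p = 0.0379). The call of let-7f-5p was lost without control library 1 (0.23), control library 2 (0.29) or middle dose library 1 (0.10). That of let-7i-5p was lost without control library 2 (-0.20), control library 3 (-0.22) or middle dose library 2 (-0.23). Reads of such close copies can be assigned to one another. Without control libraries 2 and 3 the adjusted p of these 6 ran from 0.113 to 0.464, and against the other controls let-7d-5p fell (-0.28, adjusted p = 0.0357) and let-7f-5p rose (0.29, adjusted p = 0.0168).

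The miR-30 group moved the other way. All 5 tested members of the list rose, with a median of 0.42, beside 27.1% higher and a median of -0.05 over all 328. The 3 that could be matched share the seed GUAAACA. This family is abundant in liver and known to repress connective tissue growth factor. miR-30d-5p rose by 1.62 ± 0.16 (adjusted p = 7.14e-10), from 7239, 5029 and 5263 CPM to 15392, 21106 and 17431 CPM. The other 4 rose by between 0.22 and 0.58. Without control libraries 2 and 3 only miR-30d-5p passed, while against the controls of days 3 and 14 all 5 did.

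The miR-148 and miR-152 group, with the seed CAGUGCA, had miR-148a-3p and miR-148b-3p (0.68 ± 0.14) higher and miR-152-3p not called (-0.23 ± 0.13, adjusted p = 0.143). miR-148b-3p has the same base as miR-148a-3p at 19 of 21 positions, and its call was lost without control libraries 2 and 3 (adjusted p = 0.417). Of the 11 seed groups with at least 3 tested members, 1 had all members lower, 1 had all higher and 3 had calls in both directions, the third being let-7.

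**Figure D3:**
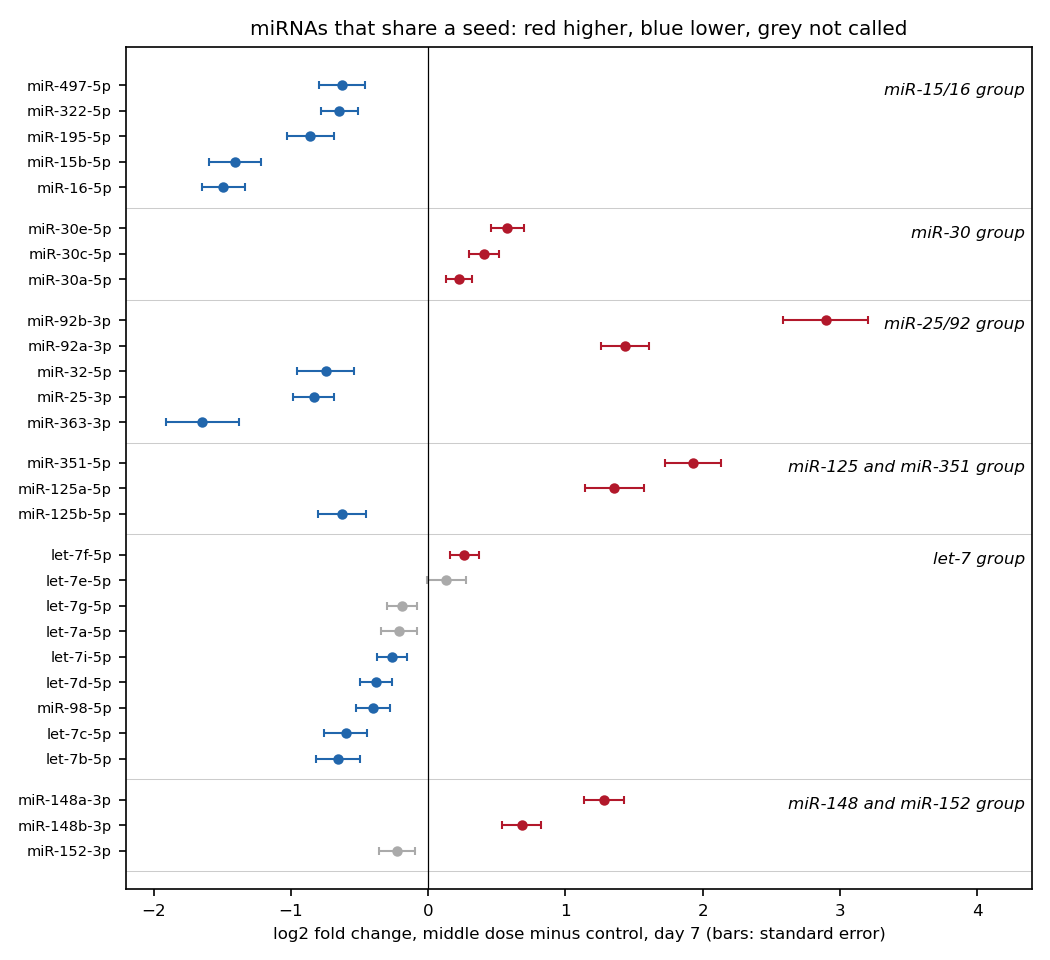
log2 fold change with its SE for the members of 6 groups of miRNAs that share a seed, middle dose minus control on day 7. Only members with a RefSeq sequence are shown, so miR-15a-5p, miR-30b-5p and miR-30d-5p are left out. The miR-15/16 members shown run from -1.49 to -0.63 and the miR-30 members shown from 0.22 to 0.58. The miR-25/92 and miR-125 and miR-351 groups have members on both sides of 0.

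Sterol-linked miRNAs were listed because the drug blocks sterol synthesis. The miR-183/96/182 cluster is known to be induced by the sterol sensor Srebf2, and miR-33 is cut from an intron of Srebf2 itself and represses the cholesterol exporter Abca1. Of the 5 listed, the 3 of the cluster rose and both arms of miR-33 fell, beside 27.1% higher and 23.8% lower over all 328. miR-182 was at 644, 697 and 623 CPM in controls and 1909, 1376 and 1741 CPM in treated libraries, a rise of 1.36 ± 0.21 (adjusted p = 4.12e-06). miR-96-5p rose by 1.04 ± 0.35 (adjusted p = 0.013), a call lost without control library 3 (0.69, adjusted p = 0.109), without control libraries 2 and 3 (adjusted p = 0.377) and against the other controls (adjusted p = 0.926). miR-183-5p was at 47.6, 55.4 and 37.4 CPM and 392, 59.6 and 91.7 CPM, a rise of 1.96 ± 0.43 (adjusted p = 0.000486) that rests on middle dose library 1, without which it was 0.66 (adjusted p = 0.0563). Without control libraries 2 and 3 its adjusted p was 0.0593.

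miR-33-5p was at 73.6, 105 and 97.4 CPM in controls and 41.9, 44.4 and 66.6 CPM in treated libraries, a fall of 0.85 on the log2 scale (adjusted p = 0.000161). miR-33-3p fell by 0.76 (adjusted p = 0.00354), with adjusted p = 0.0989 without control libraries 2 and 3. miR-33-5p and miR-182 kept their calls without control libraries 2 and 3 (-0.66 and 1.26) and against the other controls (-0.44 and 0.58). The day 7 controls held less miR-182 than those of days 3 and 14, with a log2 difference of -0.78 (adjusted p = 0.0188).

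In the inflammation list, miR-21-5p fell and miR-146a-5p (0.63 ± 0.21) and miR-146b-5p (0.74 ± 0.28) rose, of 7 tested, which is near the 27.1% higher and 23.8% lower over all 328. No member of that list passed without control libraries 2 and 3 or against the controls of days 3 and 14. miR-146a-5p, a brake on NF-kB signalling, lost its call without control library 2 (0.50, adjusted p = 0.109) and without middle dose library 1 (0.45, adjusted p = 0.119). miR-146b-5p lost it without control library 2, control library 3 or middle dose library 1, with values from 0.45 to 0.64. In the miR-29 family, which represses collagens, miR-29a-5p rose (0.67 ± 0.22) and miR-29b-3p fell (-0.59 ± 0.18), of 5 tested, near the same shares. Both calls were lost without control libraries 2 and 3 (adjusted p = 0.187 and 0.182). Without control library 3 miR-29b-3p was at -0.33 (adjusted p = 0.131). Against the controls of days 3 and 14, 1 of the 5 tested was called higher and 1 lower. Of 9 tested arms of miR-23, miR-24 and miR-27, 4 fell, beside 23.8% lower over all 328, with miR-23b-3p at -0.84 ± 0.16 and miR-24-3p at -0.82 ± 0.16, and 6 fell against the controls of days 3 and 14. miR-331-3p was not called, at 0.55 ± 0.27 (adjusted p = 0.088), and without control library 1 its change was 0.78 (adjusted p = 0.0332).

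miR-193a-3p, miR-193b-3p and miR-365-3p come from related clusters and all rose. miR-193a-3p went from 888, 664 and 565 CPM to 1890.4, 1445 and 1589.7 CPM (1.22 ± 0.21, with adjusted p = 0.0689 without control libraries 2 and 3), and miR-193b-3p from 21.0, 12.6 and 11.1 CPM to 61.5, 80.2 and 41.6 CPM (2.01 ± 0.27). Among abundant miRNAs outside the lists, miR-186-5p rose by 2.16 ± 0.19, from 782, 415 and 491 CPM to 2337, 2684 and 2553 CPM, and miR-26b-5p by 1.23 ± 0.14.

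The balance of the arms within a hairpin can be read as a ratio inside each library, which does not depend on the scaling between libraries. The calls of the separate arms do depend on it. Of all 328 miRNAs tested, 27.1% were called higher and 23.8% lower. Whether pairs of arms depart from these shares was not tested. Both arms were tested for 96 hairpins, and both were called for 27 of them. In 13 both arms were higher, in 7 both lower, and in 7 they moved in opposite directions: let-7d, miR-194, miR-28, miR-322, miR-455, miR-872 and miR-99a. In each of the 7 the 5p arm fell and the 3p arm rose, and the 5p arm was the more abundant in all 3 day 7 controls.

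The miR-322 hairpin, from an X-linked growth cluster, is one of the 7. For every 100 reads of miR-322-5p there were 3.31, 2.28 and 2.37 reads of miR-322-3p in the controls and 27.9, 35.4 and 35 in the treated libraries. In the 5 controls of days 3 and 14 the range was 2.39 to 4.73, in the low dose of day 7 18 to 21.4 and in the high dose 33.2 to 37.8. The treated values lie above every control. miR-322-5p is the arm with the AGCAGCA seed and fell, while miR-322-3p, with the unrelated seed AACAUGA, rose.

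For miR-28 the abundant arm changed place. For every 100 reads of miR-28-3p there were 136, 226 and 237 reads of miR-28-5p in the controls and 18.1, 17.3 and 20.9 in the treated libraries, against 92.9 to 149 in the other controls. In the day 7 controls miR-28-5p was thus the more abundant arm in each library, and after treatment miR-28-3p was. miR-28-5p itself moved little, at -0.33 ± 0.11 (adjusted p = 0.0141), and against the other controls it did not pass (adjusted p = 0.134).

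In miR-22, where both arms rose, reads of the 5p arm per 100 reads of the 3p arm were 0.0078, 0.00392 and 0.00913 in the controls and 0.0671, 0.119 and 0.105 in the treated libraries, so that the 5p arm stayed rare throughout. For miR-872 there were 26.2, 11.5 and 14.9 reads of the 3p arm per 100 of the 5p arm in controls and 75, 76.8 and 79.3 after treatment. For miR-194, a hepatocyte hairpin, the values were 0.492, 0.246 and 0.317 and 1.74, 1.11 and 1.53. The groups did not overlap in any of the 3.

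Less even values came from let-7d, miR-99a and miR-455. let-7d had 18.9, 10.1 and 11.2 reads of the 3p arm per 100 of the 5p arm in controls and 21.9, 53.3 and 33.7 in treated libraries, where the first treated library lies close to the range of the other controls, 17.8 to 21. miR-455 had 28.6, 22.9 and 31.9 and 51.7, 41 and 150, beside 33.7 to 141 in the other controls, and its miR-455-3p change rests on middle dose library 3, without which it was 0.04 (adjusted p = 0.936). It was also lost without control library 1 (0.81) or 2 (0.90). miR-99a had 2.24, 1.07 and 1.88 and 3.61, 5.45 and 5.54, and the call of miR-99a-3p was lost without control library 2, control library 3 or middle dose library 2, with values from 0.53 to 0.60. Opposite calls were made for 4 of 11 hairpins with both arms called without control libraries 2 and 3, and for 4 of 16 against the controls of days 3 and 14.

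**Figure D4:**
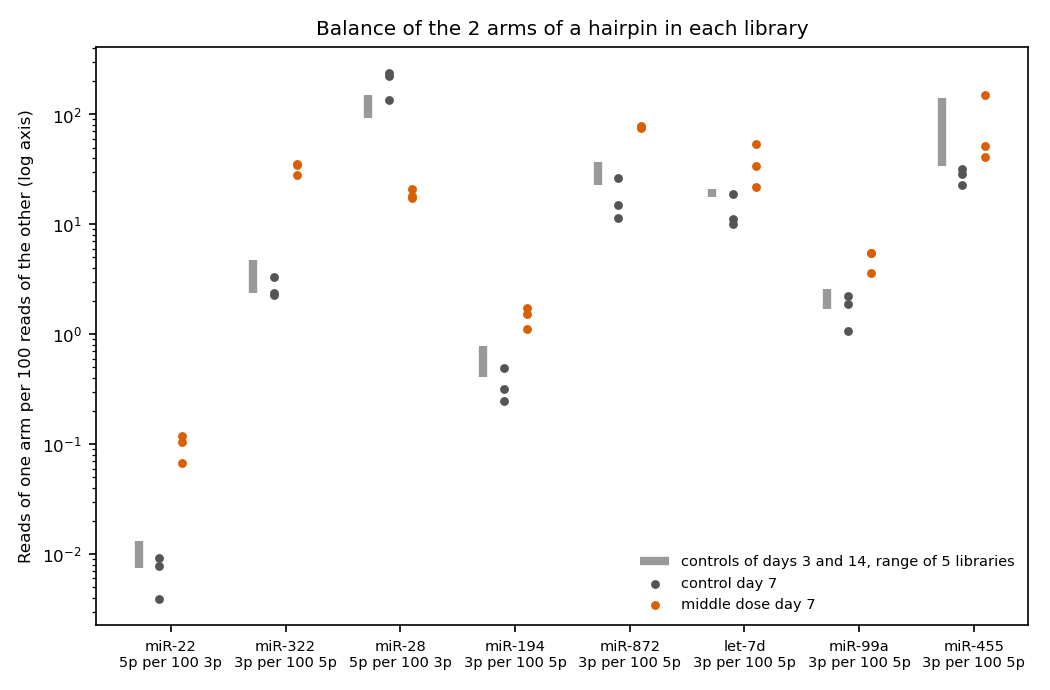
Reads of one arm per 100 reads of the other (log axis) in each control (grey points) and middle dose (orange points) library of day 7 for miR-22 and the 7 hairpins with opposite calls. Grey bars span the 5 controls of days 3 and 14; for miR-322 the treated points lie at 27.9 to 35.4 and all controls below 5, while 2 of the 3 treated miR-455 points fall within the bar.

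Across all tested miRNAs named by arm, 48 of 160 3p arms were higher (30.0%) and 26 lower (16.2%), and 36 of 146 5p arms were higher (24.7%) and 48 lower (32.9%). let-7a-1-3p and let-7c-2-3p have the same base at 22 of 22 positions and the same CPM in each of the 6 libraries. They are counted as 2 of the 3p arms called higher, and as 2 of the 89 rises. The median log2 fold change was 0.07 for 3p arms and -0.21 for 5p arms. Among miRNAs with a RefSeq sequence, the last base was U in 39.2% of the 79 higher, 25.4% of the 71 lower and 31.5% of all 292, and G in 21.5%, 33.8% and 23.6%. Median GC content was 45.5% in both the higher and the lower miRNAs and 47.6% in all tested. These are descriptions of the called sets and were not tested.

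Hairpins that lie within 10 kb of each other in the RefSeq gene table (GRCr8) are often cut from one transcript. There were 30 such clusters with at least 2 tested hairpins. In 9 of them at least 2 abundant arms were called, all in one direction, such as the 3 hairpins of miR-182, miR-96 and miR-183, the pair miR-143 and miR-145, and the pair miR-221 and miR-222. Of these 9, 4 rest on an arm that also comes from another locus. The calls of miR-96-5p and miR-183-5p were lost in some settings, as given above, and the cluster counts rest on the main fit alone. In 7 clusters the abundant arms were called in both directions, and 4 of these rest on miR-92a-3p or let-7f-5p, each of which has 2 loci and is counted in 2 clusters. The other 3 include miR-191 with miR-425, described above, and the cluster of miR-322 with miR-351, where miR-351-5p rose and miR-322-5p fell. Beside these counts, 27.1% of all 328 miRNAs were called higher and 23.8% lower. Whether members of 1 cluster share a direction more often than other miRNAs was not tested.

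The middle dose was also set against the other doses of day 7, with no control library involved. Against the low dose, 33 of 328 miRNAs (10.1%) were called in edgeR, 7 higher (2.13%) and 26 lower (7.93%). That split depends on the scaling: with DESeq2's size factors 35 were called, 48.6% of them higher, against 21.2% with TMM. miR-193a-3p was lower at the middle than at the low dose by 1.30 on the log2 scale (adjusted p = 0.000159), with a low dose mean of 4054 ± 458 CPM (SD, n = 3) and a middle dose mean of 1642 ± 227 CPM. miR-193a-3p and miR-182 kept their calls in each setting in which this comparison was refitted. The count of calls was 21 without low dose library 3, 20 without middle dose library 2 and 13 without middle dose library 3.

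Other miRNAs named between these doses, apart from miR-182, lost their calls in some settings. miR-148a-3p (0.55), miR-182 (0.99), miR-194-3p (0.65) and miR-183-5p (1.62) were higher at the middle dose. miR-802-5p (-0.91), miR-150-5p (-0.86) and miR-342-3p (-0.85) were lower. miR-802 is a hepatocyte miRNA, and miR-150 and miR-342 are miRNAs of white blood cells. miR-183-5p without middle dose library 1 was at 0.44 (adjusted p = 0.331), and without low dose library 3 at 1.48 (adjusted p = 0.0689). miR-148a-3p lost its call without middle dose library 2 (0.47) or low dose library 2 (0.51), and miR-150-5p without middle dose library 3 (-0.69).

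The calls of miR-194-3p, miR-802-5p and miR-342-3p were each lost without at least 4 single libraries. For miR-194-3p these were low dose libraries 1, 2 and 3 and middle dose libraries 1 and 3, with values from 0.57 to 0.74. For miR-802-5p they were low dose libraries 1 and 2 and all 3 middle dose libraries, from -0.90 to -0.78. For miR-342-3p they were low dose libraries 1 and 3 and middle dose libraries 2 and 3, from -0.82 to -0.67.

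Against the high dose, 0 of 328 miRNAs were called by edgeR, with 45 at an unadjusted p under 0.05, and DESeq2 also called 0. The 3 smallest p-values belonged to miR-30a-3p (0.66), let-7g-3p (-0.74) and miR-30e-3p (0.61), each with adjusted p = 0.106. Without middle dose library 2, 6 miRNAs were called, among them miR-30a-3p (0.76, adjusted p = 0.034). The leading rise, miR-22-5p, had a mean of 149 ± 16.4 CPM (SD, n = 3) at the low dose, 189 ± 58.6 CPM at the middle dose and 219 ± 7.31 CPM at the high dose, and no pair involving the middle dose passed. A missed threshold does not show that the doses act alike.

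**Figure D5:**
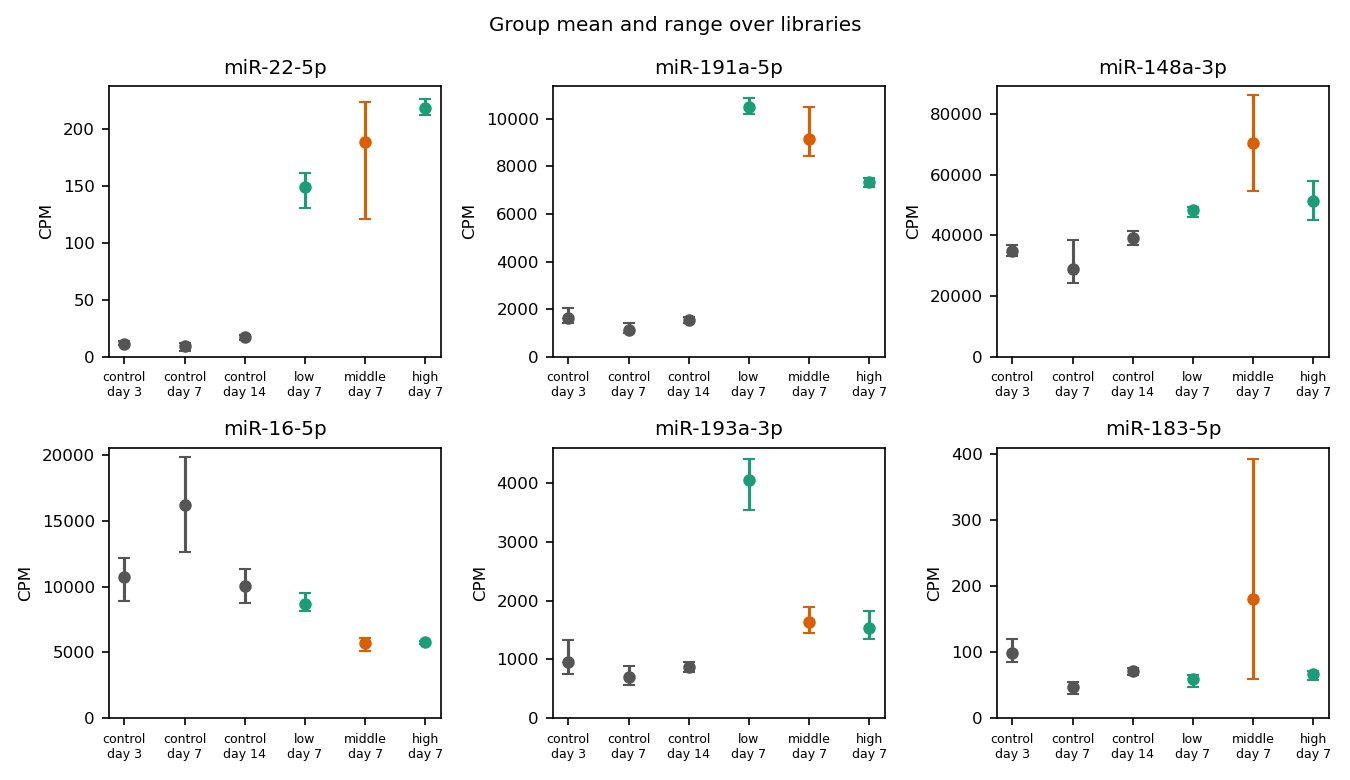
Group mean CPM (points) and range over libraries (bars) of 6 miRNAs in the controls of each day (grey; 3, 3 and 2 libraries) and in the low, middle (orange) and high dose of day 7 (3 libraries each). miR-193a-3p peaks at the low dose, and the wide middle dose bar of miR-183-5p is 1 library at 391.6 CPM.

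The middle dose effect on day 7 was compared with its mean effect on days 3 and 14, a test of the difference itself. By edgeR, 0 of 328 miRNAs passed, with 52 at an unadjusted p under 0.05, and DESeq2 called 11. The smallest p-values were those of miR-16-5p (-0.77), miR-455-3p (1.83) and miR-145-5p (1.07), with adjusted p = 0.0783, 0.0783 and 0.0911. For miR-16-5p the fall was thus 0.77 larger on day 7, short of the threshold. This difference includes the level of the day 7 controls, which for miR-16-5p stood above the other controls, as given below. For miR-145-5p the middle dose means were 385, 414 and 361 CPM on days 3, 7 and 14. Its control means on those days were 107, 53.5 and 96.9 CPM. The count of calls was 40 without control library 1 of day 7. It was 10 without control library 2 of day 14 and 3 without control library 2 of day 3. It was 3, 6 and 1 without middle dose libraries 1, 2 and 3 of day 7. All 3 named miRNAs passed without control library 1 of day 7, and also without control library 2 of day 3 or of day 14. The day 7 rise of miR-455-3p rests on middle dose library 3, as described above, with 167, 190 and 609 reads in the middle dose libraries.

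The day 7 controls themselves differed from the controls of days 3 and 14 in 29 of 328 miRNAs (8.84%), 15 higher (4.57%) and 14 lower (4.27%). Several of the miRNAs above were among them. miR-16-5p, miR-15b-5p and miR-15a-5p were higher in the day 7 controls, by 0.64, 0.63 and 0.52 (adjusted p = 0.016, 0.0188 and 0.0188). miR-145-5p (-0.92) and miR-148a-5p (-0.70) were lower in them. In each of these the day 7 control level lies on the far side of the other controls from the treated level, and the fold change against the day 7 controls is the larger one. Without control library 2, or without control library 3, 0 miRNAs passed in this comparison, and without control library 1 the count was 86. It was 6 without control library 3 of day 3, and 2 and 12 without control libraries 1 and 2 of day 14.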

How the data were processed

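Small RNA libraries of rat liver (TruSeq Small RNA kit, per the labels' protocols) were available as raw counts per miRNA, a table deposited by the authors with whole-number counts and no normalization. The build was rn6, per the submitters' processing notes. Which aligner and annotation were used, and what became of reads that match several miRNAs, is not given in the sources used here. Groups came from the labels. Middle dose libraries 2 and 3 of day 14 had 2 count columns each, which were summed, and they have the largest totals of the 35. Counts were tested with edgeR 4.0.16 in R 4.3.3: TMM scaling, a low-count filter (minimum count 10, minimum total 15), 12 group means over 35 libraries, 23 residual degrees of freedom, the quasi-likelihood test and Benjamini-Hochberg adjustment over the 328 miRNAs tested, at a threshold of 0.05. SEs were taken as the log2 fold change over the root of F. The principal components used log2 CPM with a prior count of 2. DESeq2 1.42.0, other scalings and filters, other controls and leaving out libraries served as alternatives. The script was tested on simulated data. Figures were drawn with matplotlib 3.10.9.

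The text names the 12 largest rises and 12 largest falls among called miRNAs of at least 10 CPM without overlap, the 8 most abundant, up to 4 members of each list, the other arm of named hairpins, miR-34a-5p and miR-331-3p, and the leading miRNAs of the comparisons of days and doses. Other seed group members, arms with opposite calls, cluster neighbours, further list members, miR-186-5p and miR-26b-5p were chosen after their values were seen. The members, lists and limits were chosen with earlier results of these data known. Replicate libraries differed by more than counting noise, with a chi-square per degree of freedom from 70.5 to 339.6 over the pairs within both groups.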

Additional observations from a re-analysis of the deposited data

How the results depend on the processing

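For the middle dose against the control on day 7, 167 miRNAs were called. Leaving out 1 library at a time gave 132 to 186, and leaving out both control libraries 2 and 3 gave 72. Fitting the 6 libraries alone gave 121, and the share of calls that were higher was 53.3% with TMM, 62.9% with no low-count filter and 44.8% with library size alone. For the difference of the effect between days, against a count of 0, library size alone gave 8, DESeq2 gave 11 and leaving out 1 library 0 to 40. Against the low dose, with 33 called, no low-count filter gave 20, the day 7 libraries alone gave 19 and leaving out 1 library 13 to 41. There the share higher was 21.2% with TMM, 37.8% with the stricter filter, 60% with no filter and 50% in DESeq2. Against the high dose, leaving out 1 library gave 0 to 6. For the day 7 controls against the other controls, with 29 called, no filter gave 19, leaving out both control libraries 2 and 3 gave 0 and leaving out 1 library 0 to 86. There the share higher was 51.7% with TMM, 40.6% with DESeq2's size factors, 37.1% with library size alone, 10.5% with no filter and 39.5% in DESeq2 and with the stricter filter. The cause of these moves was not tested, beyond the smaller number of libraries fitted.

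The labels number the libraries of both groups from 1 to 3, and libraries with the same number had correlations of deviations of -0.092, 0.118 and 0.082, so the numbers were not taken as pairs. A fit with the replicate number as a block called 166 miRNAs for the middle dose against the control, 33 against the low dose, 0 against the high dose, 2 for the difference between days and 1 for the day 7 controls against the others, and not every library correlated best with its own number.

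Signs turned in few named miRNAs. Leaving out control libraries 2 and 3, miR-34a-5p was at -0.18, miR-802-5p at -0.28 and miR-200a-5p at 0.16. Against the controls of days 3 and 14, let-7i-5p was at 0.031. Leaving out 1 library, miR-34a-5p ran from -0.081 to 0.46. Leaving out libraries of days 3 and 14 in turn, and control libraries 2 and 3 in the last comparison and that of days, was chosen after seeing the data. Depth limits miRNAs such as miR-128-3p and miR-92b-3p, whose control libraries hold 36 reads or fewer.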
